A study of Homo sapiens with 17 samples.

Results

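Repression of the enhancer e1 in KYSE140 cells was followed by RNA sequencing in 4 of the 17 libraries of the series, and the data on all genes of those 4 libraries are described here. KYSE140 is an esophageal squamous cell carcinoma line with high expression of SOX2. All 4 libraries came from cells with a stably expressed inactive Cas9 fused to repressor domains that include KRAB (CRISPR interference, CRISPRi), which silences the site that a guide RNA brings it to. The e1 group held 1 library each of CRISPRi sg-e1#1 and CRISPRi sg-e1#2, and the control group 1 library each of CRISPRi sg-NC#1 and CRISPRi sg-NC#2, whose guides have no site in the genome. For comparison, 5 KYSE140 libraries with active Cas9 were used, 3 with SOX2 guides (CRISPR sg-SOX2#2, #3 and #4) and 2 with control guides (CRISPR sg-AAVS1 and CRISPR sg-Chr2.2). Libraries of a group differed by guide. The study describes those of e1 repression as independent experiments, while for the knockout libraries nothing in the labels says that they came from separate cultures, so p-values that use them measure only the spread between these libraries, which may be technical.

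SOX2 is an SRY-box transcription factor that maintains progenitor cells of the foregut and of squamous epithelium, and it is an oncogene when amplified in squamous cancers. The enhancer e1 is a noncoding element on the 3′ side of SOX2, in a cluster of enhancers that these cancers amplify together with the gene. Squamous epithelium is layered: basal cells hold KRT5, KRT14 and KRT15 and are anchored by laminin and integrins to a basement membrane, suprabasal cells switch keratins, and the outermost cells build a cornified envelope. At a wound edge, keratinocytes switch on another set of genes, among them the stress keratins KRT6, KRT16 and KRT17, laminin-332, proteases of the plasminogen system and interleukin 1. In bulk RNA such as this, fewer cells of a type and less RNA per cell cannot be told apart.

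The 4 libraries held 10926774 and 11331070 expected counts with control guides and 9081230 and 9983237 with e1 guides. At these depths 3 counts equal 0.265 to 0.33 CPM, that is, counts scaled to the library total. Counts of the 2 control libraries differed by a chi-square of 2.72 for each degree of freedom and those of the 2 e1 libraries by 2.82, above the sampling noise. This spread does not tell cultures, guides and library preparation apart. Each library was treated as 1 sample. All 10 squamous markers were expressed in every library, with KRT5 at 3476 and 3397 TPM with control guides and 4293 and 4522 TPM with e1 guides. Summed TPM (a share of transcripts corrected for their length) of the other marker lists was 1.7 to 3.69 for endothelial genes and 0.48 to 1.54 for intestinal genes. The fibroblast sum went from 40.4 and 49.6 TPM to 65.2 and 58.6 TPM, from COL1A1 and THY1, while COL1A2, COL3A1 and FAP were listed at 0 in all 4. The leukocyte sum was 1.85 and 1.28 TPM against 25.5 and 27.3 TPM and lay almost wholly in CD68, a lysosomal protein, with PTPRC at no more than 0.03 TPM. Mitochondrially encoded genes took 4.77% and 4.98% of counts in the controls and 3.45% and 3.86% with e1 guides.

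SOX2 (chr3:181429713-181432224, plus strand, GRCh37) sits within the noncoding RNA gene SOX2-OT (chr3:180707550-181554668, same strand). SOX2 fell from 379 and 365 TPM with control guides to 119.6 and 128 TPM with e1 guides (log2 fold change -1.57, SE 0.05; edgeR adjusted p 2.6e-12). SOX2-OT fell from 84 and 84.1 TPM with control guides to 6.51 and 3.36 TPM with e1 guides (log2 fold change -4.46, SE 0.12; edgeR adjusted p 2.2e-13). The 2 e1 libraries lay below both controls for each gene. Both genes overlap on one strand, but their expected counts were whole in all 4 libraries, so no fractional division of reads was seen. The assignment of reads between them was not tested further. In the list of chromosome 3q genes around them 2 of the 24 tested members rose and 2 fell, 8.33% each way against 9.3% risen and 10.7% fallen among all genes tested. The risen ones were ECE2, an endothelin-converting enzyme (log2 fold change 0.98, SE 0.14), and PSMD2, a proteasome subunit (log2 fold change 0.69, SE 0.05), and beside SOX2-OT the fallen one was MCCC1, a mitochondrial carboxylase subunit (log2 fold change -0.70, SE 0.06). EIF4G1, a translation initiation factor encoded farther along the arm, stood at 309.9 and 325 TPM with control guides and 321 and 326 TPM with e1 guides and was not called.

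Beyond SOX2, 2764 of 13792 tested genes (20%) passed an adjusted p of 0.05 and a fold change of 1.5 ("called" below), of which 1283 rose (9.3% of those tested) and 1481 fell (10.7%). The CPM values of the 2 groups did not overlap for 9945 genes (72.1%), so that non-overlap alone says little with 2 libraries a group. Part of the tested genes was read in 38 lists by known function. These lists were written with earlier results of these data known and do not classify all changed genes. Lists share some members, such as SERPINB2 in the protease and serpin lists, so their counts are not independent. Lists with the largest shares of risen members were clade B serpins, chemokines and interleukin 1, basal and stress keratins, the cornified envelope, matrix proteases, and interferon genes. Shares of fallen members were largest in the SOX family, granins and neural secretory genes, collagens, and the FGF and Hedgehog pathways. Genes of DNA replication, mitosis, ribosomes and oxidative phosphorylation were hardly called.

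**Figure D1:**
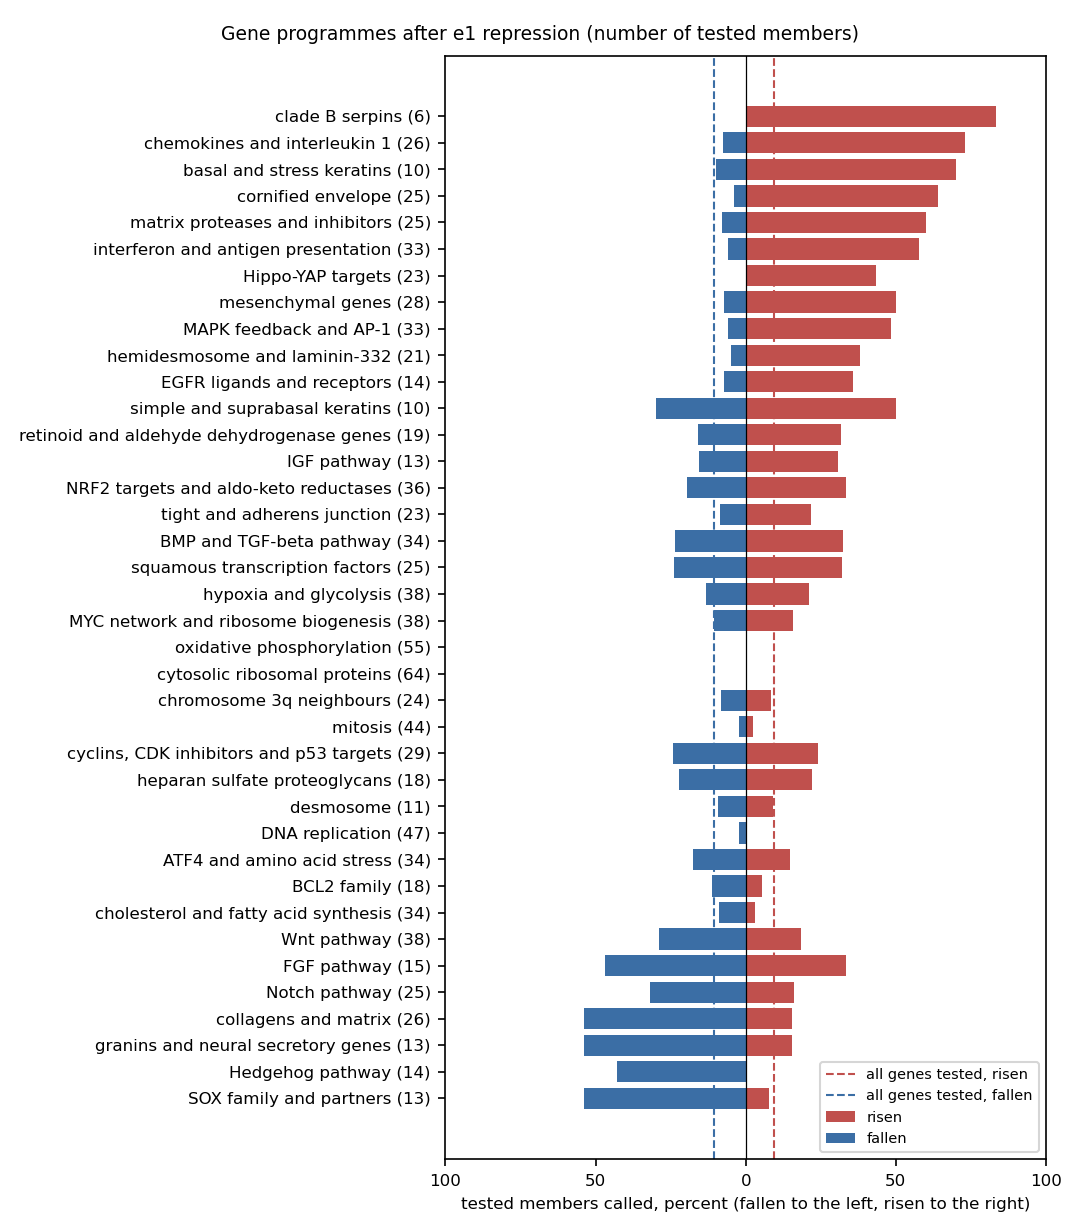
Share of tested members called in each of 38 gene lists, in percent, risen to the right in red and fallen to the left in blue, with the number of tested members in parentheses. The dashed lines mark all genes tested (9.3% risen, 10.7% fallen); 83.3% of the clade B serpins rose and 53.8% of the collagens and matrix genes fell.

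**Figure D2:**
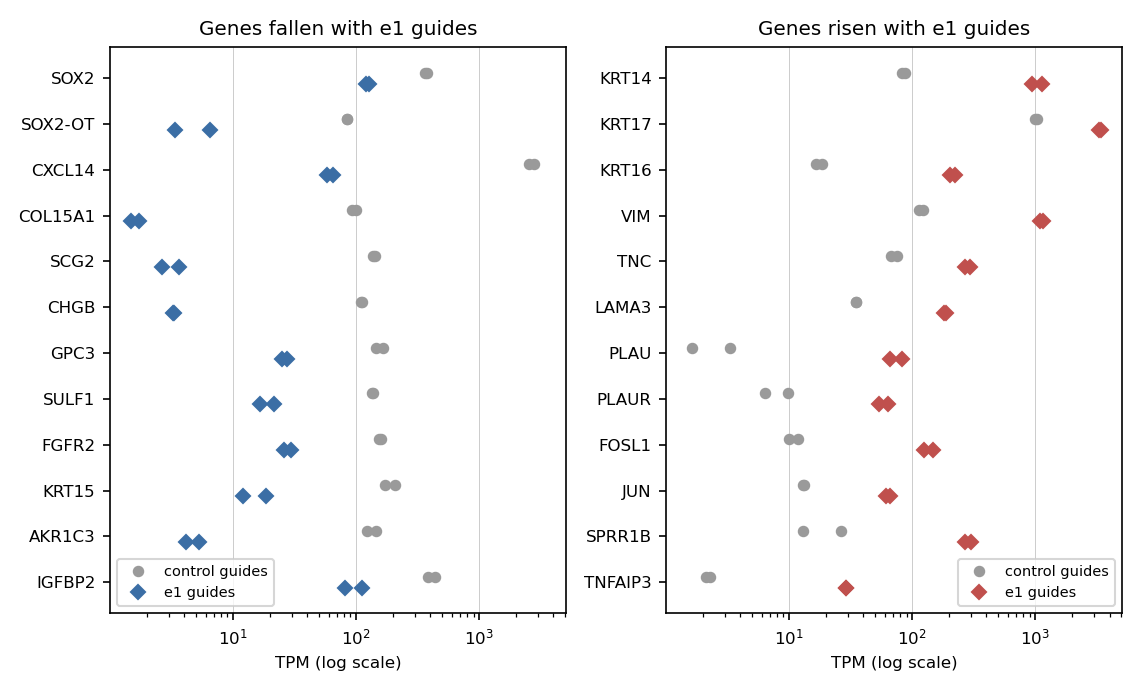
TPM on a log axis of 12 fallen genes (left) and 12 risen genes (right) in each of the 4 libraries, control guides as grey circles and e1 guides as coloured diamonds. All were called after e1 repression, and examples are CXCL14 (2783 and 2539 against 58.6 and 64.6 TPM) and VIM (122 and 114 against 1156 and 1082 TPM).

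Among SOX genes and their partners, 1 of the 13 tested members rose and 7 fell (median log2 fold change -0.60, against 0.00 for all tested genes). SOX21, a SOX2-related gene of neural and airway progenitors, fell from 27.8 and 32.1 TPM with control guides to 6.0 and 6.26 TPM with e1 guides (log2 fold change -2.27, SE 0.12). SOX5, which encodes a SOX protein of cartilage and neurons, fell from 2.01 and 4.58 to 1.42 and 0.35 TPM (log2 fold change -3.08, SE 0.36). Log2 fold changes rest on counts, and TPM also on the transcript length that RSEM estimated in each library. Both ratios were over 1.5 times apart for 9 of the 209 named genes compared, which were SOX5, EHF, ETS1, IL1B, INHBA, OASL, SBSN, SERPINB2 and TGM1. SALL2, a zinc-finger gene expressed with SOX2 in neural cells, fell from 5.34 and 5.1 to 1.45 and 1.18 TPM. ID4, an inhibitor of basic helix-loop-helix factors, fell from 3.72 and 3.64 to 1.74 and 1.07 TPM. SOX9 was the single member to rise (log2 fold change 1.11, SE 0.18), from 2.37 and 2.58 to 5.76 and 4.85 TPM. SOX4, at 52.3 and 50.6 TPM with control guides and 33.7 and 36.3 TPM with e1 guides, missed the fold threshold. Without the library of e1 guide #2 it passed (-0.59).

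CXCL14, a chemokine that epithelium makes constitutively, had the smallest p of all genes and fell from 2783 and 2539 TPM with control guides to 58.6 and 64.6 TPM with e1 guides (log2 fold change -5.41, SE 0.07; edgeR adjusted p 4.0e-17). Of the granins and neural secretory genes, 2 of the 13 tested members rose and 7 fell (median -0.94). SCG2, a granin of dense-core secretory vesicles, fell from 137 and 144 TPM with control guides to 2.68 and 3.68 TPM with e1 guides (log2 fold change -5.64, SE 0.10; edgeR adjusted p 1.5e-15). CHGB, another granin, fell from 113 and 109 TPM with control guides to 3.24 and 3.3 TPM with e1 guides (log2 fold change -5.04, SE 0.10; edgeR adjusted p 6.2e-15). NTS, which encodes the peptide neurotensin, fell from 233 and 187 to 26.5 and 26.6 TPM (log2 fold change -2.97, SE 0.11). NRCAM, a neuronal adhesion molecule, fell from 12.1 and 11.9 to 1.85 and 2.01 TPM (log2 fold change -2.92, SE 0.13). The list did not move as one: VGF, a neuropeptide precursor, rose from 4.1 and 3.18 to 21 and 24.8 TPM (log2 fold change 2.69, SE 0.15) and CALB1, a calcium buffer, from 98.2 and 89.9 to 426 and 366 TPM (log2 fold change 2.16, SE 0.09). UCHL1, a ubiquitin hydrolase abundant in neurons, stood at 923 and 905 TPM with control guides and 864 and 817 TPM with e1 guides and was not called.

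In the list of collagens and matrix genes 4 of the 26 tested members rose and 14 fell, with a median log2 fold change of -0.74. COL15A1, a collagen of the basement membrane zone, fell from 92.2 and 99.7 TPM with control guides to 1.73 and 1.48 TPM with e1 guides (log2 fold change -5.84, SE 0.10; edgeR adjusted p 1.3e-15). The Fraser complex, which holds epithelium to the dermis, lost transcripts of all 3 listed genes: FREM1 (log2 fold change -3.92, SE 1.02), FREM2 (log2 fold change -3.15, SE 0.10) and FRAS1 (log2 fold change -1.83, SE 0.10). FREM2 went from 18.7 and 19.5 to 1.77 and 2.84 TPM. FREM1 was not called without the library of e1 guide #2 (log2 fold change -3.00, edgeR adjusted p 0.0724). The chains of collagen IV, the network-forming collagen, fell by less, from 397 and 436 to 203 and 231 TPM for COL4A1 and from 408 and 424 to 232 and 255 TPM for COL4A2, and COL4A5 and COL4A6 had log2 fold changes of -1.17 and -1.12. FBN2, a microfibril protein, fell from 162 and 183 to 45.3 and 49.1 TPM (log2 fold change -1.89, SE 0.06). Of the 4 risen members, COL1A1 rose from 15.9 and 13.5 to 37.3 and 38.3 TPM, COL12A1 from 5.42 and 5.9 to 18.5 and 18.1 TPM, and EFEMP1 and COL27A1 had log2 fold changes of 1.07 and 0.59. COL27A1 was at 0.56 without the library of control guide #1 and at 0.48 without that of e1 guide #1, under the fold threshold. COL1A1 is also a fibroblast marker, and the part of other cells in its change was not tested, with COL1A2 and COL3A1 listed at 0 in all 4 libraries.

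Heparan sulfate carriers changed in both directions: 4 of the 18 tested members rose and 4 fell. That was 22.2% each way, against 9.3% and 10.7% of all genes. GPC3, a glypican on the cell surface, fell from 164 and 146 TPM with control guides to 25 and 27.3 TPM with e1 guides (log2 fold change -2.55, SE 0.08). SULF1, which trims sulfate from heparan sulfate, fell from 135 and 137 TPM with control guides to 21.4 and 16.5 TPM with e1 guides (log2 fold change -3.07, SE 0.08; edgeR adjusted p 1.4e-13), whereas its paralog SULF2 rose from 9.26 and 6.18 to 17.8 and 23.2 TPM (log2 fold change 1.47, SE 0.12). GPC4 and GPC1 fell (log2 fold change -0.92, SE 0.07, and log2 fold change -0.76, SE 0.06). SDC4, a syndecan of focal adhesions, rose from 17 and 18.5 to 61.9 and 61.1 TPM (log2 fold change 1.80, SE 0.08).

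Of the developmental signalling lists, the FGF pathway lost receptors. FGFR2, the receptor of epithelial cells for FGF7 and FGF10, fell from 161 and 155 TPM with control guides to 25.9 and 29.9 TPM with e1 guides (log2 fold change -2.49, SE 0.07; edgeR adjusted p 2.8e-13). FGFR1 fell from 25 and 21.5 to 7.9 and 7.31 TPM and FGFR3 from 16.7 and 16 to 6.21 and 9.34 TPM, while FGFR4 was not called (13 and 11.7 TPM with control guides and 8.64 and 7.52 TPM with e1 guides). On the ligand side, FGF2 rose from 4.91 and 7.53 to 10.1 and 9.71 TPM and FGFBP1, a carrier that releases FGFs from the matrix, rose from 17.6 and 23.1 to 139.5 and 129 TPM (log2 fold change 2.71, SE 0.11). FGF2 was not called without the library of control guide #1 (0.45), where 3 members of the list rose. In all, 5 of the 15 tested members rose and 7 fell (33.3% and 46.7%, against 9.3% and 10.7% of all genes). In the Hedgehog pathway 0 of the 14 tested members rose and 6 fell. They included the co-receptors BOC (12.6 and 9.18 to 2.73 and 3.47 TPM) and GAS1 (6.99 and 7.55 to 3.84 and 2.61 TPM), the transducer SMO (36.9 and 36.5 to 15.2 and 18.2 TPM) and the transcription factor GLI3 (13.9 and 12.2 to 6.24 and 7.97 TPM). GLI1, itself a target of the pathway, was not called (11.1 and 13.1 TPM with control guides and 12.2 and 11.9 TPM with e1 guides).

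In the Wnt pathway 7 of the 38 tested members rose and 11 fell, against 9.3% and 10.7% of all genes. The fallen ones included LGR5 (log2 fold change -3.05, SE 0.27) and LGR4 (log2 fold change -1.74, SE 0.07), receptors of R-spondins that amplify the signal. LGR4 went from 44.8 and 43 to 12.1 and 13.3 TPM. AXIN2, a feedback inhibitor that Wnt signalling switches on, fell from 1.99 and 4.4 to 1.27 and 1.0 TPM (log2 fold change -1.90, SE 0.34). Ligands were among the risen members: WNT9A rose from 2.58 and 2.92 to 10.2 and 11.7 TPM, WNT7A from 3.52 and 4.67 to 14.4 and 11.5 TPM and WNT5B from 8.31 and 10.4 to 29.1 and 24.7 TPM. DKK1, a secreted Wnt inhibitor, rose from 86.1 and 96.7 to 201 and 181 TPM. In the Notch pathway 4 of the 25 tested members rose and 8 fell (16% and 32%, against 9.3% and 10.7% of all genes). The target HEY1 fell from 23.8 and 21.2 to 4.8 and 6.41 TPM (log2 fold change -2.09, SE 0.15), and the receptor NOTCH3 from 62.5 and 62.4 to 25.8 and 27.4 TPM (log2 fold change -1.22, SE 0.06). The receptor NOTCH2 rose from 13.6 and 16.9 to 23 and 26.3 TPM and the ligand JAG1 from 57.7 and 69.2 to 96.7 and 98.3 TPM. JAG1 was not called without the library of control guide #1 (0.52). HES1, the best known Notch target, was not called, at 53.6 and 55 TPM with control guides and 52 and 50.5 TPM with e1 guides.

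In the BMP and TGF-beta list 11 of the 34 tested members rose and 8 fell. These were 32.4% and 23.5%, against 9.3% and 10.7% of all genes. INHBA, the subunit of activin A, rose from 0.19 and 0.0700 TPM with control guides to 22.4 and 16.2 TPM with e1 guides (log2 fold change 6.57, SE 0.25), with 12 counts in the 2 controls together. FSTL3, a secreted activin inhibitor, rose from 16.9 and 22.8 to 93.5 and 84 TPM (log2 fold change 2.23, SE 0.09). BMP7 fell from 49 and 46.9 to 22.7 and 17.7 TPM and its target ID2 from 24 and 31.3 to 19 and 11.2 TPM. In the IGF pathway 4 of the 13 tested members rose (30.8%) and 2 fell (15.4%). IGFBP2, a binding protein, fell from 436 and 387 TPM with control guides to 81.8 and 111 TPM with e1 guides (log2 fold change -2.10, SE 0.09). IGFBP6 rose from 5.79 and 8.89 to 43.6 and 38 TPM (log2 fold change 2.42, SE 0.18).

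Squamous transcription factors were split: 8 of the 25 tested members rose and 6 fell. These were 32% and 24%, against 9.3% and 10.7% of all genes. TP63, the master factor of squamous lineage, fell from 153 and 157 to 94.6 and 98 TPM (log2 fold change -0.62, SE 0.05), and all 3 grainyhead factors fell, GRHL1 by 0.71, GRHL2 by 0.61 and GRHL3 by 0.80 on the log2 scale. These calls lay near the fold threshold: without the library of e1 guide #1, 3 members fell, and TP63, GRHL1 and GRHL2 were at -0.58, -0.55 and -0.54. GRHL1 was also not called without control guide #2 (-0.47) and GRHL2 without control guide #1 (-0.58). PITX1, a homeobox factor, fell from 168 and 155 to 83.5 and 81.3 TPM. EHF and ELF3, ETS factors of differentiating epithelium, rose (log2 fold change 3.54, SE 0.23, and log2 fold change 1.69, SE 0.26). BNC1, a zinc-finger protein of basal keratinocytes, rose from 2.86 and 4.54 to 14.3 and 12.7 TPM, and SOX15 from 10.8 and 11.2 to 39.1 and 30.3 TPM. KLF5, at 59.3 and 61.1 TPM with control guides and 65.3 and 63.3 TPM with e1 guides, was not called.

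Basal keratins moved in opposite directions. In the list of basal and stress keratins 7 of the 10 tested members rose and 1 fell, with a median log2 fold change of 1.52. KRT14 rose from 87.1 and 81.9 TPM with control guides to 1132 and 933 TPM with e1 guides (log2 fold change 3.63, SE 0.08; edgeR adjusted p 3.6e-14). KRT16 rose from 16.7 and 18.6 TPM with control guides to 221 and 203 TPM with e1 guides (log2 fold change 3.67, SE 0.08; edgeR adjusted p 3.2e-14). KRT17 rose from 1027 and 999 TPM with control guides to 3429 and 3287 TPM with e1 guides (log2 fold change 1.75, SE 0.05; edgeR adjusted p 1.4e-13), and KRT6B from 1.53 and 2.85 to 69.6 and 57.3 TPM (log2 fold change 4.86, SE 0.17). KRT15, a basal keratin linked to quiescent stem cells, was the single member to fall, from 208 and 171 TPM with control guides to 12.2 and 18.7 TPM with e1 guides (log2 fold change -3.64, SE 0.15). KRT5, the abundant partner of KRT14, rose in level by too little to be called (3476 and 3397 TPM with control guides and 4293 and 4522 TPM with e1 guides). Some keratins have near-identical copies. Expected counts of KRT14, KRT16, KRT17, KRT6B, KRT15 and KRT5 were fractional in at least 1 library. Some of their reads were thus divided among genes, and exact shares are uncertain. KRT15 had 1949.13 and 1598.47 expected counts with control guides and 87.79 and 150 with e1 guides. Among simple and suprabasal keratins, KRT13, the keratin of esophageal suprabasal cells, fell from 47.9 and 37 to 18.7 and 20.2 TPM (log2 fold change -1.11, SE 0.12). KRT19 fell from 600.5 and 503.8 to 245 and 280.2 TPM and KRT8 from 769.7 and 725 to 401 and 411 TPM, whereas KRT7 rose from 2.1 and 2.9 to 21.3 and 23.1 TPM (log2 fold change 3.09, SE 0.30).

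Genes that anchor epithelium to the matrix rose in part. In the list of hemidesmosome and laminin-332 genes 8 of the 21 tested members rose and 1 fell. LAMA3, the alpha-3 chain of laminin-332, rose from 35 and 35.2 TPM with control guides to 189 and 181 TPM with e1 guides (log2 fold change 2.23, SE 0.05; edgeR adjusted p 7.6e-14), while the beta-3 chain LAMB3 was not called (318 and 331 TPM with control guides and 483 and 471 TPM with e1 guides). LAMB3 passed without the library of e1 guide #2 (0.61). The integrin chains ITGA6 (log2 fold change 1.77, SE 0.05) and ITGA5 (log2 fold change 1.87, SE 0.08) rose, and ITGB4, the hemidesmosome partner of ITGA6, had a log2 fold change of 0.06 that did not pass the test. Of mesenchymal genes 14 of the 28 tested members rose and 2 fell (median 0.95). VIM, the intermediate filament of mesenchymal cells, had the smallest p of the risen genes reported here, and rose from 122 and 114 TPM with control guides to 1156 and 1082 TPM with e1 guides (log2 fold change 3.27, SE 0.06; edgeR adjusted p 2.8e-15). AXL, a receptor tyrosine kinase, rose from 1.89 and 1.06 TPM with control guides to 35.1 and 32.7 TPM with e1 guides (log2 fold change 4.63, SE 0.12; edgeR adjusted p 2.2e-13). TNC, a matrix glycoprotein of wounds, rose from 66.9 and 74.8 TPM with control guides to 268 and 295 TPM with e1 guides (log2 fold change 2.00, SE 0.05; edgeR adjusted p 2.1e-13). SNAI2 was the called member among the transcription factors of the mesenchymal transition in this list (log2 fold change 1.77, SE 0.09), with SNAI1 and TWIST2 not called. CDH2, the cadherin of mesenchymal cells, fell from 80.8 and 79.3 to 41.6 and 45.5 TPM (log2 fold change -0.90, SE 0.06), and the epithelial cadherin CDH1 stood at 89.5 and 93.6 TPM with control guides and 90.5 and 96.2 TPM with e1 guides. Without the library of e1 guide #2, 4 mesenchymal genes fell.

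Of the desmosome genes, which join cell to cell, 1 of the 11 tested members rose and 1 fell (9.09% each way). Of the tight and adherens junction genes 5 of the 23 tested members rose and 2 fell (21.7% and 8.7%, against 9.3% and 10.7% of all genes). CLDN4, a claudin, rose from 59.9 and 61.4 to 156 and 139 TPM (log2 fold change 1.30, SE 0.07). PKP1, a desmosome plaque protein, fell from 177 and 177 to 114 and 117 TPM and EPCAM, an epithelial adhesion molecule, from 239 and 227 to 127 and 125 TPM. PKP1 was not called without the library of e1 guide #1 (-0.56), where 0 desmosome genes were called and 2 junction genes rose, nor without that of control guide #1 (-0.57). JUP and DSP, further plaque proteins, were not called (352 and 336 to 374 and 377 TPM, and 118 and 124 to 90.9 and 102 TPM).

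Most tested proteases and inhibitors of the matrix rose: 15 of the 25 tested members rose and 2 fell (median 1.39). PLAU, the urokinase that activates plasminogen, rose from 1.62 and 3.32 TPM with control guides to 82.7 and 66 TPM with e1 guides (log2 fold change 4.91, SE 0.18), and its receptor PLAUR from 9.88 and 6.38 to 63.4 and 53.7 TPM (log2 fold change 3.19, SE 0.14). MMP1, the interstitial collagenase, rose from 0.22 and 0.14 to 8.26 and 6.31 TPM (log2 fold change 5.30, SE 0.43), and MMP13 from 1.89 and 1.43 to 37 and 39.5 TPM (log2 fold change 4.48, SE 0.14). PRSS23, a secreted serine protease outside the list, rose from 1.64 and 2.62 TPM with control guides to 147 and 125 TPM with e1 guides (log2 fold change 6.02, SE 0.14; edgeR adjusted p 4.9e-14). TIMP1, an inhibitor of metalloproteinases, rose (log2 fold change 1.01, SE 0.14) and TIMP3 fell (log2 fold change -0.76, SE 0.06). Of clade B serpins 5 of the 6 tested members rose and 0 fell. SERPINB2, an inhibitor of urokinase, rose from 0.87 and 1.48 TPM with control guides to 34.6 and 28.2 TPM with e1 guides (log2 fold change 5.63, SE 0.23), SERPINB7 from 0.49 and 0.48 to 21.8 and 14.7 TPM and SERPINB5, called maspin, from 41 and 40.7 to 122 and 105 TPM.

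AP-1 is a dimer of FOS and JUN family proteins that MAP kinase signalling activates. In that list 16 of the 33 tested members rose and 2 fell (median 0.75). FOSL1, a FOS family member, rose from 9.97 and 11.8 TPM with control guides to 146 and 124 TPM with e1 guides (log2 fold change 3.57, SE 0.10), and JUN from 12.9 and 13.1 TPM with control guides to 65.8 and 61.5 TPM with e1 guides (log2 fold change 2.31, SE 0.08), while MAFK, a related basic leucine zipper protein, was not called (32.4 and 34.1 TPM with control guides and 52.5 and 44.5 TPM with e1 guides). MAFK passed without the library of e1 guide #2 (0.64). DUSP4 and DUSP5, phosphatases that MAP kinase signalling induces and that act back on it, rose from 1.25 and 1.41 to 16.8 and 13 TPM and from 1.77 and 2.12 to 21.8 and 19.2 TPM. SPRY1, another feedback inhibitor, fell from 9.45 and 9.53 to 4.38 and 1.79 TPM. Of the EGFR family and its ligands 5 of the 14 tested members rose and 1 fell. These were 35.7% and 7.14%, against 9.3% and 10.7% of all genes. HBEGF rose from 3.02 and 2.55 to 15.3 and 18.6 TPM (log2 fold change 2.78, SE 0.17), AREG from 73.2 and 78.1 to 321 and 283 TPM (log2 fold change 2.05, SE 0.08) and TGFA from 5.12 and 9.33 to 17.6 and 18.2 TPM (log2 fold change 1.70, SE 0.12), all ligands of EGFR. EGFR itself, at 106 and 106 TPM with control guides and 137 and 154 TPM with e1 guides, was not called, and the ligand BTC fell (log2 fold change -0.96, SE 0.21). The list had 2 fallen members without the library of control guide #2. Of Hippo-YAP targets 10 of the 23 tested members rose and 0 fell: F3, the tissue factor of coagulation, rose from 6.79 and 8.25 to 63.4 and 44.8 TPM, ANKRD1 from 0.64 and 1.33 to 9.0 and 6.6 TPM and CRIM1 from 9.56 and 10.2 to 39.8 and 37.8 TPM. CAV1, a coat protein of caveolae, rose from 389 and 443 TPM with control guides to 1284 and 1281 TPM with e1 guides (log2 fold change 1.68, SE 0.05; edgeR adjusted p 3.4e-13).

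**Figure D3:**
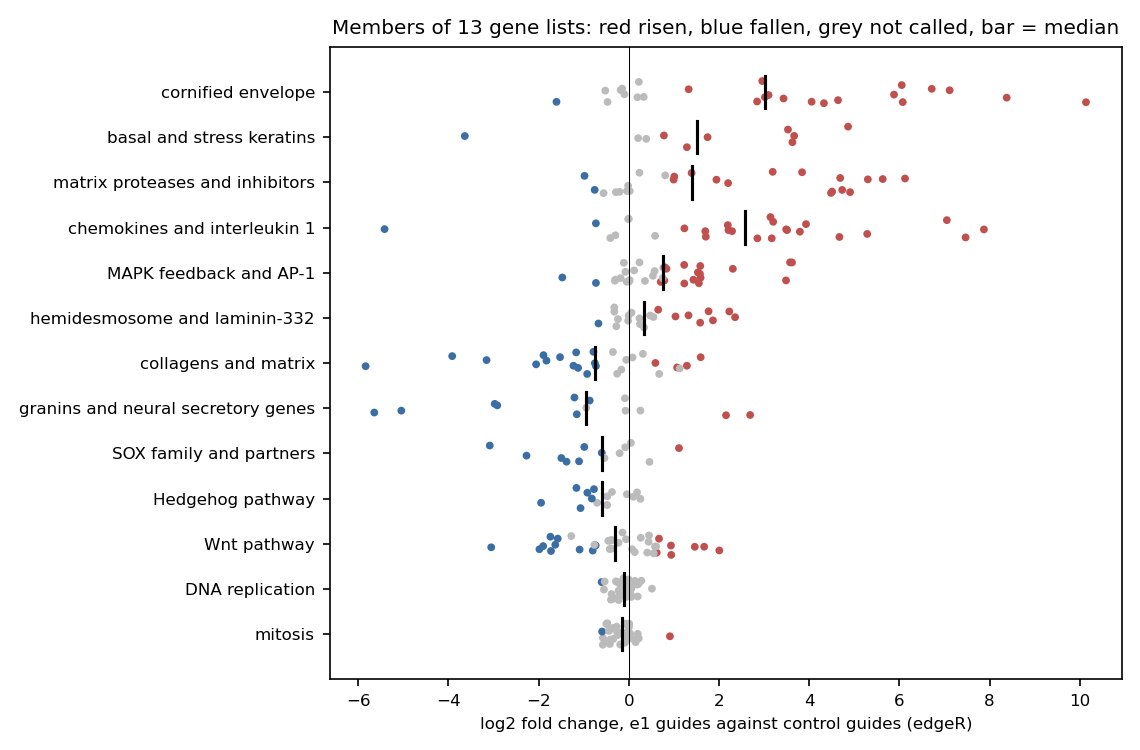
Log2 fold change (e1 guides against control guides) of each tested member of 13 gene lists, with risen members in red, fallen in blue, members not called in grey and the list's median as a black bar. The cornified envelope list had a median of 3.02 and the DNA replication list a median of -0.11.

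The heptamer TGACTCA, read on both strands, is the sequence that AP-1 binds best, and it was counted in the 300 bases before the start of each gene's canonical transcript (GENCODE release 44 on GRCh37). Of 1230 risen genes with such a window 97 (7.89%) held it, of 1443 fallen genes 37 (2.56%), and of all 13367 windows 405 (3.03%). The SOX core ATTGTT stood in 6.26% of risen, 4.5% of fallen and 4.99% of all windows, and the TEAD core GGAATG in 14.8%, 9.36% and 11.1%. The TEAD core can share its last bases with the heptamer. Each motif was counted separately, and shared bases were not excluded. A match is a description of letters, not of binding. Windows of 2 risen genes, of the cornified envelope and of the Hippo-YAP targets, are shown because both hold the heptamer, which is in capitals (TGAGTCA as read 5′ to 3′ on the gene's strand).
SPRR1A (chr1:152956257-152956556, plus strand): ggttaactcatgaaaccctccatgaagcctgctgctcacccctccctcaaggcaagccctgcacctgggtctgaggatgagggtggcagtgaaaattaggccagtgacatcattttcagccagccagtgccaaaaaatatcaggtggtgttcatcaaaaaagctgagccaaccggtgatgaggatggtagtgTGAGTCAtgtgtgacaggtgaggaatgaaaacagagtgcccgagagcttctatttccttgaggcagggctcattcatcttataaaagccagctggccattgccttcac
F3 (chr1:95007316-95007615, minus strand): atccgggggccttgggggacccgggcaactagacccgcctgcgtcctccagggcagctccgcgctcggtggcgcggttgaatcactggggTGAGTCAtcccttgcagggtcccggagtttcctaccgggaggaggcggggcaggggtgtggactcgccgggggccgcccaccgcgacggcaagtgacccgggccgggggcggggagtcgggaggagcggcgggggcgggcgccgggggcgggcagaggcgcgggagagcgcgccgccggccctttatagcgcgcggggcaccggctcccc
Each held the heptamer at 1 place, with its first base 108 bases before the start for SPRR1A and 210 bases before it for F3. The SPRR1A window also held the TEAD core at 1 place, in small letters.

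Inflammatory genes gave one of the largest shares of risen members. In the list of chemokines and interleukin 1 genes 19 of the 26 tested members rose and 2 fell, with a median log2 fold change of 2.57, or 2.41 with the members that had a group at 0 set to their bound. IL1A, an alarm cytokine of keratinocytes, rose from 0.53 and 0.45 TPM with control guides to 21.7 and 16.7 TPM with e1 guides (log2 fold change 5.29, SE 0.26). IL1B, its secreted relative, was called with 0.34 and 0 TPM in the controls and 15.5 and 10.7 TPM with e1 guides. IL36G, an epidermal member of the family, was listed at 0 in both controls and reached 3.63 and 3.62 TPM in the e1 libraries, at least 7.76-fold higher by a floor of 3 counts in each control. IL18 rose from 0.22 and 0.400 to 8.13 and 6.48 TPM (log2 fold change 4.67, SE 0.55), and IL1RN, the antagonist of the interleukin 1 receptor, from 0.43 and 1.23 to 10.2 and 12.1 TPM (log2 fold change 3.79, SE 0.32). TNFAIP3, an inhibitor of NF-kB signalling, rose from 2.28 and 2.11 TPM with control guides to 29.2 and 29.1 TPM with e1 guides (log2 fold change 3.49, SE 0.13) and BIRC3 from 0.33 and 0.32 to 6.15 and 4.53 TPM, while NFKBIA, another inhibitor, was not called (133 and 135 TPM with control guides and 212 and 189 TPM with e1 guides). It lay just under the fold threshold (0.58), which it passed without the library of control guide #1 (0.59) or that of e1 guide #2 (0.66). CXCL1, by contrast, was not called (224 and 232 TPM with control guides and 195 and 138 TPM with e1 guides). It passed without the library of e1 guide #1 (-0.67). Because CXCL14 was by far the most abundant member, the summed TPM of the list went down, from 3257 and 3014 TPM to 824 and 682 TPM, while most of its members rose.

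Interferon and antigen presentation genes rose in number but mostly from low levels: 19 of the 33 tested members rose and 2 fell (median 0.93). SAMD9, an antiviral gene, rose from 1.33 and 1.43 to 6.46 and 6.26 TPM (log2 fold change 2.22, SE 0.14) and OASL from 0.800 and 0.19 to 3.5 and 2.54 TPM (log2 fold change 3.37, SE 0.53). The class I genes HLA-B and HLA-E did not reach the fold threshold, with log2 fold changes of 0.44 and 0.37. HERC5 and HERC6 fell (log2 fold change -1.05, SE 0.11, and log2 fold change -0.88, SE 0.17).

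The cornified envelope list held the largest median log2 fold change of the 38 lists, 3.02 also with members at 0 set to their bound, and in it 16 of the 25 tested members rose and 1 fell. SPRR1A, a small proline-rich protein that is cross-linked into the envelope, was listed at 0 in both controls and reached 53.8 and 41.3 TPM in the e1 libraries, at least 49.7-fold higher by the floor of 3 counts in each control. SPRR1B, its close copy, rose from 13.1 and 26.2 TPM with control guides to 300.1 and 268 TPM with e1 guides (log2 fold change 4.05, SE 0.15). IVL, involucrin, rose from 0.14 and 0 to 6.54 and 3.28 TPM and SPRR3 from 1.71 and 3.7 to 191 and 159 TPM. The kallikreins KLK5, KLK6 and KLK10, proteases of the shedding layer, rose with log2 fold changes of 4.64, 2.96 and 3.43. CDSN, an adhesion protein of the outermost layer, was listed at 0 in both controls and reached 2.77 and 2.0 TPM in the e1 libraries, at least 14.7-fold higher by the same floor, and SBSN was called with 0 and 0.07 TPM in the controls and 6.43 and 5.86 TPM with e1 guides. Other members were not called: TGM1, the transglutaminase that cross-links the envelope, stood at 6.32 and 12.9 TPM with control guides and 8.0 and 5.05 TPM with e1 guides, CNFN, cornifelin, at 11 and 13.8 TPM with control guides and 13.4 and 9.52 TPM with e1 guides, and the plakins PPL and EVPL had log2 fold changes of -0.47 and -0.18. FLG, filaggrin, fell from 1.16 and 1.7 to 0.38 and 0.54 TPM (log2 fold change -1.60, SE 0.24). SPRR genes also share reads with one another, and their separate values are uncertain.

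Metabolic lists were mixed. Of NRF2 targets and aldo-keto reductases 12 of the 36 tested members rose and 7 fell. These were 33.3% and 19.4%, against 9.3% and 10.7% of all genes. AKR1C3, a reductase of steroids and prostaglandins, fell from 146 and 123 TPM with control guides to 4.13 and 5.34 TPM with e1 guides (log2 fold change -4.75, SE 0.15), and GSR, glutathione reductase, from 83.6 and 87.8 to 45.3 and 39.2 TPM. HMOX1, heme oxygenase, rose from 6.74 and 8.26 to 25 and 19.1 TPM and TRIM16 from 21.9 and 25.1 to 71.3 and 83.8 TPM. Of retinoid genes 6 of the 19 tested members rose and 3 fell (31.6% and 15.8%). CRABP2, a carrier of retinoic acid, rose from 27.9 and 28.6 to 90.4 and 92.6 TPM. ALDH1A1, an enzyme that makes retinoic acid, fell from 61.1 and 62.1 to 20.8 and 18.2 TPM. In the hypoxia and glycolysis list 8 of the 38 tested members rose and 5 fell (21.1% and 13.2%), the fallen share being near that of all genes. The largest rise was that of NDRG1, a stress gene (log2 fold change 2.22, SE 0.07), with GAPDH and ENO1 both at log2 fold changes of 0.18. Of amino acid stress genes 5 of the 34 tested members rose and 6 fell (14.7% and 17.6%, against 9.3% and 10.7% of all genes). PHGDH, the first enzyme of serine synthesis, fell from 379 and 374 to 182 and 206 TPM and TRIB3 rose from 24.1 and 24.9 to 56 and 50.3 TPM. Of cholesterol and fatty acid genes 1 of the 34 tested members rose and 3 fell (2.94% and 8.82%, both under the shares of all genes). Among other fallen genes with small p, GPNMB, a glycoprotein of lysosomes, went from 1385 and 1394 TPM with control guides to 208 and 237 TPM with e1 guides (log2 fold change -2.65, SE 0.06; edgeR adjusted p 1.4e-14). METTL7A, a methyltransferase of lipid droplets, fell from 92.4 and 103 to 4.72 and 5.96 TPM (log2 fold change -4.09, SE 0.10; edgeR adjusted p 5.5e-14). NEDD9, an adhesion scaffold, fell from 108 and 110.2 to 25.3 and 26.5 TPM, TMTC1 from 26.7 and 27.8 to 3.66 and 3.06 TPM and GALNT1 from 181 and 162 to 37.1 and 37.6 TPM, the latter 2 being genes of protein O-glycosylation.

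Of 47 DNA replication genes 0 rose and 1 fell, and of 44 mitosis genes 1 rose and 1 fell, both under the 9.3% and 10.7% of all genes. PCNA, the replication clamp, stood at 264 and 257 TPM with control guides and 241 and 239.8 TPM with e1 guides, and CCNB1, the cyclin of mitotic entry, at 301 and 309 TPM with control guides and 300.2 and 290.1 TPM with e1 guides. NUSAP1, a spindle protein, was the mitosis gene that fell (log2 fold change -0.59, SE 0.08), and it was not called without the library of control guide #1 (-0.51) or that of e1 guide #2 (-0.51). No replication gene fell without control guide #1. Without control guide #2, 2 replication genes and 3 mitosis genes fell, and without e1 guide #1, 2 mitosis genes fell. Without a minimum fold change 18 and 23 genes of these lists had an adjusted p under 0.05, beside 6103 of all 13792 tested genes. Of cyclins, CDK inhibitors and p53 targets 7 of the 29 tested members rose and 7 fell (24.1% each way). CCND1, cyclin D1, rose from 156 and 158 TPM with control guides to 495 and 501 TPM with e1 guides (log2 fold change 1.68, SE 0.05; edgeR adjusted p 3.6e-13). SFN, an inhibitor of the cycle in keratinocytes, rose from 356 and 354 to 1262 and 1164 TPM (log2 fold change 1.79, SE 0.05), and GADD45A, a stress gene, from 31.6 and 33.5 to 126 and 92.9 TPM. MYC rose from 75.7 and 73.2 to 146 and 142 TPM (log2 fold change 0.97, SE 0.06), and MYCL fell from 10.1 and 8.62 to 1.78 and 2.86 TPM (log2 fold change -2.13, SE 0.19). Of BCL2 family genes 1 of the 18 tested members rose and 2 fell, 5.56% and 11.1%, near the 9.3% and 10.7% of all genes. The risen one was PMAIP1, called NOXA (log2 fold change 1.29, SE 0.14). Without the library of e1 guide #2, 2 members rose. None of 64 ribosomal protein genes and none of 55 oxidative phosphorylation genes was called. An adjusted p under 0.05 in edgeR was reached by 18 and 38 of them, beside the 6103 of all 13792 tested genes. The median of the oxidative phosphorylation list was -0.23, with MT-CO1 at 9775 and 11216 TPM with control guides and 7195 and 8509 TPM with e1 guides.

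The SOX2 knockout asked which of these changes also follow when the coding gene itself is cut. The 2 experiments share no library. SOX2 RNA had log2 fold changes of -1.57 after e1 repression and -1.28 in the knockout, with a difference that did not pass the test. SOX2-OT had -4.46 and -2.88 (difference -1.56, SE 0.30, edgeR adjusted p 0.00138). These are levels of RNA only. In the knockout 4157 of 13978 genes were called (29.7%), of which 16.3% of those tested rose and 13.5% fell. Of the genes called after e1 repression and tested in the knockout, 61.1% were called there in the same direction, and these were 42.7% of the knockout's calls among genes tested in both experiments. The difference between both effects was itself tested, and 2397 of 14455 genes (16.6%) passed, 1187 higher (8.21%) and 1210 lower (8.37%) in e1 repression than in the knockout. With scaling by library size alone 1883 were higher and 902 lower, 67.6% of the calls against 49.5%, and the median difference of all genes moved from 0.03 to 0.17.

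RNA of DNA replication and mitosis genes set the experiments apart. The paper, however, counted significantly fewer KYSE140 cells after e1 repression, which ectopic SOX2 rescued. It also reports that its top SOX2-regulated genes, as sets, changed after e1 repression much as in the knockout. In the knockout 38 of the 47 replication genes and 38 of the 44 mitosis genes fell. The difference passed the test, higher in e1 repression, for 32 and 30 genes of these lists, against 8.21% of all genes. With library size alone these counts were 40 and 38. Summed TPM of the replication list was 3659 and 3758 with CRISPRi control guides and 3363 and 3421 with e1 guides. It was 3302 and 3069 with the knockout's control guides and 1515, 1674 and 1814 with SOX2 guides #2, #3 and #4. PCNA, for example, had log2 fold changes of -0.10 and -0.78 (difference 0.70, SE 0.09, edgeR adjusted p 6.5e-05).

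Epithelial differentiation set them apart in the other direction. Members lower in e1 repression than in the knockout were 15 of 23 junction genes, 6 of 11 desmosome genes and 10 of 25 cornified envelope genes. So were 8 of 10 basal and stress keratins and 12 of 25 squamous transcription factors, and, outside differentiation, 14 of 33 interferon genes. Of all genes tested for the difference, 8.37% were lower. Without the library of SOX2 guide #4, 17 cornified envelope genes were lower. Summed TPM of the cornified list went from 381 and 397 TPM to 1049 and 916 TPM in e1 repression. It went from 569 and 540.4 TPM to 31880, 26165 and 17045 TPM in the knockout. DSP, the plaque protein desmoplakin, had log2 fold changes of -0.32 after e1 repression and 1.99 in the knockout (difference -2.28, SE 0.13, edgeR adjusted p 7.3e-08). KRT5 had 0.39 and 1.94 (difference -1.53, SE 0.09, edgeR adjusted p 9.2e-08), and GRHL3 had -0.80 and 1.52 (difference -2.30, SE 0.16, edgeR adjusted p 5.6e-07). By contrast, ITGA5 had 1.87 and 1.87, with a difference that did not pass the test. COL15A1 had -5.84 and -5.71, and CHGB -5.04 and -5.12. CAV1 differed in the other direction, with 1.68 against 0.14 (difference 1.56, SE 0.08, edgeR adjusted p 3.8e-08).

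**Figure D4:**
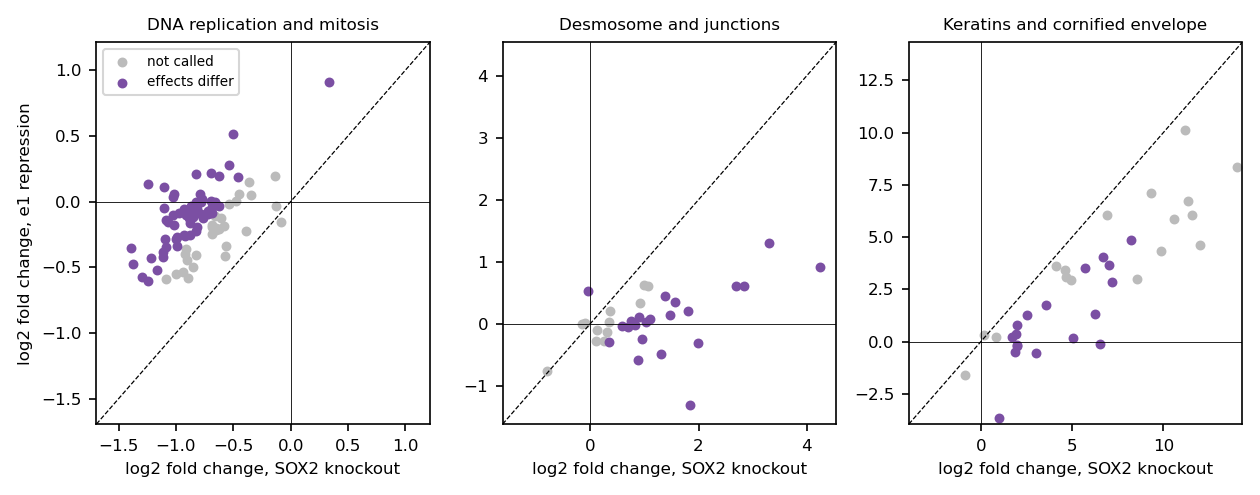
Log2 fold change after e1 repression (vertical axis) against that after SOX2 knockout (horizontal axis) for members of 6 gene lists in 3 panels, with genes whose effects differed by the test in purple, all others in grey and a dashed line where both effects are equal. Replication and mitosis genes lie above the line, with 32 and 30 of them called higher in e1 repression, and most junction, keratin and cornified genes lie below it.

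The control groups of both experiments were not alike. KRT15 stood at 208 and 171 TPM with CRISPRi control guides and at 14.9 and 16.2 TPM with the knockout's control guides. The e1 libraries, at 12.2 and 18.7 TPM, had less than the CRISPRi controls, and the SOX2 knockout libraries, at 28.2, 27.2 and 25.6 TPM, had more than their own. The part of the starting level in a difference between the effects was not tested.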

How the data were processed

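Poly-A RNA of human cell lines was sequenced. The authors aligned reads to hg19 with Bowtie2 and quantified genes with RSEM (versions not given in the sources used here), per the labels' processing notes and the methods. The deposited tables hold expected counts per gene, not normalized, and TPM, which the authors' RSEM run scaled within each library. Of the 57820 genes, 8.48% to 8.96% per library had fractional expected counts, a mark of shared reads. Another deposited unit, FPKM, was not used here.

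Rounded expected counts entered edgeR 4.0.16 (R 4.3.3) and its quasi-likelihood F test, with TMM scaling and filterByExpr (minimum count 10, minimum total 15). A gene whose fold change exceeded 1.5 was called where its p, adjusted by Benjamini-Hochberg, was below 0.05. A standard error was the log2 fold change over the square root of F. The e1 fit used 4 libraries, the knockout fit 5, and the test of their difference 9. Libraries were grouped by the labels. Total counts limit precision, and floors of 3 counts cover counting error only.

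The members and gene lists were chosen with earlier results of these data known. Genes named were SOX2 and SOX2-OT, the 12 risen and 12 fallen with the smallest p (called, groups not overlapping, at least 5 TPM in the higher group), up to 4 called members per list and direction and 3 uncalled, and the 6 highest and 6 lowest differences. The text names part of these, and list members and other genes beyond the rule were chosen after their values were seen. Some genes of the rule are not reported here.

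Alternatives were the edgeR exact test, DESeq2 1.42.0, RLE factors, library size only, no filter or a mean of at least 50 counts, other fold thresholds, limma 3.58.1 on log2(TPM + 1) or log2(TPM + 0.1), all 13 KYSE140 libraries, leaving out 1 library at a time, and a replicate block. Tested on simulated data with 200 of 13543 genes changed 3-fold, the e1 test recovered 198 with 3 false calls. The changed genes were drawn from those with over 50 expected counts, so weaker changes and lower counts were not covered. Promoter windows could be read for 13367 genes (96.9%).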

Additional observations from a re-analysis of the deposited data

Results flagged for a closer look

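Of the list members with at least 5 TPM in any group, 12 are given here because their effects differed between e1 repression and SOX2 knockout by the test of the difference itself (log2 scale, e1 repression minus knockout, edgeR quasi-likelihood test over 9 libraries).

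The 6 with the highest differences were cytokine, retinoid and redox genes. IL1B had a difference of 4.51, and in the knockout it went from 1.05 and 2.07 TPM to 12.4, 8.39 and 13.9 TPM. Its CRISPRi controls, at 0.34 and 0 TPM, held 1 count in all, so the size of the difference is poorly known. IL8, a neutrophil chemokine, had a difference of 2.12 and went from 1.1 and 1.16 TPM to 14.8 and 6.9 TPM after e1 repression, and from 13 and 12.4 TPM to 24.8, 23 and 24.9 TPM in the knockout. IL11 had a difference of 2.80, CYP26B1, which degrades retinoic acid, 2.38, GSTM3, a glutathione transferase, 2.29, and SLC7A11, the cystine transporter, 1.99. SLC7A11 rose after e1 repression (6.96 and 8.24 to 19.3 and 16.1 TPM) and fell in the knockout (20.3 and 21.2 to 11.9, 13.2 and 11.4 TPM).

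Of the 6 with the lowest differences, ALDH3B2 had a difference of -6.94, CNFN -6.60, CALML5 -4.93, TGM1 -4.87, KRT15 -4.62 and SPRR2A -4.31. ALDH3B2 stood at 1.91 and 1.28 TPM with CRISPRi control guides and 0.56 and 0.53 TPM with e1 guides. In the knockout it went from 0.47 and 1.41 TPM to 23.6, 24.1 and 13.1 TPM. With such low levels in the other groups, the size of its difference is poorly known. CNFN was measured at 11 and 13.8 TPM without e1 guides and at 13.4 and 9.52 TPM with them. In the knockout it went from 10.3 and 13.1 TPM to 1201, 1031 and 533 TPM. TGM1 went from 2.45 and 4.16 TPM to 114, 101 and 58.6 TPM in the knockout, where SPRR2A went from 1.78 and 1.36 TPM to 234, 181 and 164 TPM. The part of the different control levels, of the 2 Cas9 systems and of the remaining SOX2 in these differences was not tested.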

How the results depend on the processing

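With 2 libraries a group, an exact permutation test of a single gene cannot give a p under 0.333, so all calls rest on the spread that edgeR pools over genes. The count of 2764 genes called was 1526 at a fold change over 2 and 6103 with no minimum. The risen count of 1283 was 763 and 3058, and the fallen count of 1481 was 763 and 3045, under the same 2 thresholds. The fallen count was 983 with limma on log2(TPM + 1). Leaving out each library gave 2422 to 2881 called, 1169 to 1325 risen and 1253 to 1556 fallen. The remaining alternatives gave 1962 to 3034 calls, within a factor of 1.5. The risen share of calls was 46.4%, and 42.1% to 50.1% over all alternatives.

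Of the 2397 genes whose effects differed from the knockout, 1021 remained in number at a difference over 2-fold and 4010 with no minimum. The higher count of 1187 was 402 and 2142, and the lower count of 1210 was 619 and 1868. Scaling by library size alone gave 1883 higher, and limma on log2(TPM + 1) gave 703 lower. Leaving out each library gave 2012 to 2758 in all, 984 to 1370 higher and 1013 to 1388 lower. A lone library left in a group was assumed to vary like the others.

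Guide numbers did not pair the libraries: the deviations of same-numbered libraries from their group means had a correlation of 0.02 over 11145 genes. Taking that number as a replicate block gave 2807 calls, 1308 risen and 1499 fallen. Of the genes named, 3 that were not called after e1 repression changed sign: TGM1 was -0.45 with limma on log2(TPM + 1) and -0.50 on log2(TPM + 0.1), CNFN ranged from -0.35 to 0.13 and CYP26B1 from -0.063 to 0.19 when 1 library was left out. The cause was not tested.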

Other observations

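Some genes outside the lists also changed, and they were chosen after their values were seen. Connexins, the proteins of gap junctions, split by member. GJA1, the broadly expressed connexin, fell from 285 and 267 TPM with control guides to 91.8 and 92.9 TPM with e1 guides (log2 fold change -1.56, SE 0.06). GJB5 rose from 37.2 and 36.2 to 68.7 and 70.5 TPM (log2 fold change 0.94, SE 0.09). GJB6 fell after e1 repression (log2 fold change -0.77, SE 0.19) and rose in the knockout (2.73; difference -3.48, SE 0.40, edgeR adjusted p 3.0e-05).

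FEZF1, a zinc-finger factor of forebrain, fell from 22.7 and 21.9 TPM with control guides to 1.88 and 2.3 TPM with e1 guides (log2 fold change -3.42, SE 0.17). DLX5 fell from 70.4 and 83.2 to 14.7 and 15.3 TPM (log2 fold change -2.41, SE 0.11) and DLX6 from 18 and 22.1 to 7.98 and 6.84 TPM. SOSTDC1, a secreted inhibitor of BMP and Wnt signals, fell from 65.9 and 75.7 to 5.13 and 4.48 TPM (log2 fold change -3.86, SE 0.12), and CXCR4, a chemokine receptor, from 21.5 and 19.2 to 0.53 and 1.48 TPM (log2 fold change -4.31, SE 0.27). CRYAB, a small heat shock protein, fell from 65.4 and 66.8 to 7.04 and 9.04 TPM (log2 fold change -2.93, SE 0.18) and rose by 0.59 in the knockout (difference -3.50, SE 0.35, edgeR adjusted p 9.1e-06).

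ETS1, a transcription factor of invading cells, rose from 2.28 and 1.73 TPM with control guides to 36.2 and 30.3 TPM with e1 guides and from 23.1 and 14.9 to 817 and 751 counts (log2 fold change of the counts 5.62, SE 0.17). The effective transcript length that RSEM gave it was 1273 and 1063 bases in the controls and 3485 and 3523 bases with e1 guides, so the TPM ratio is smaller than the count ratio. ANXA1, an annexin, rose from 392 and 395 to 1041 and 909 TPM (log2 fold change 1.33, SE 0.06), and CD44, the hyaluronan receptor, from 161 and 162 to 481 and 479 TPM (log2 fold change 1.51, SE 0.05). On chromosome 11q13, ANO1, a chloride channel, rose from 47.7 and 64.8 to 175 and 187 TPM (log2 fold change 1.86, SE 0.10) together with CCND1, while the neighbours FADD, CTTN and PPFIA1 were not called, with log2 fold changes of 0.50, 0.31 and 0.21. FADD passed without the library of control guide #1 (0.59).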
